A study of Drosophila melanogaster with 2 samples.

Results

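Intronic ChIP-seq peaks of the tagged coactivator Tai (Taiman) are described here. They are the peaks of the authors' IDR list whose summit lay more than 0.5 kb and at most 10 kb from the nearest transcription start site (TSS) of a protein-coding gene, inside a protein-coding gene and in no exon of one. The rule found 941 of the 2591 peaks in that list, or 36.7% of the 2567 peaks on the 6 main chromosome arms (exact 95% interval 34.8 to 38.6%). Chromatin immunoprecipitation with an anti-GFP antibody had been done on sonicated chromatin of whole larvae of the third instar, at the wandering stage and with males and females pooled, from a transgenic Drosophila melanogaster line that stably expresses tai with GFP at its C terminus. The 2 biological replicates, 1 and 3, form the only group and were called against the same control, with no second genotype, stage or tissue. The IDR (irreproducible discovery rate) list was derived by the authors from both replicates and their pool. Read depth is not given by peak lists, so the intervals given here cover counting error over regions only, and neighbouring regions are not independent.

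Tai is a protein of the bHLH-PAS family and of the p160 class of steroid receptor coactivators. It binds the ecdysone receptor, a nuclear receptor made of EcR and Usp, and also works with the juvenile hormone receptors. Pulses of ecdysone drive molting and metamorphosis, and wandering larvae are near the pulse that starts pupariation. Introns of Drosophila genes, the long first introns in particular, are known to hold many enhancers, the regulatory elements that act on a promoter at a distance. As a coactivator, Tai is brought to DNA by such receptors.

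The sequences at the 5 strongest intronic summits outside the arm left out of sequence printing, and at the strongest summit in tai and in Eip75B, are shown to give the DNA that the values below belong to. Each holds the summit and 100 bases on each side, read 5′ to 3′ on the plus strand of the dm6 assembly from RefSeq's copy. Capitals mark matches, on either strand, to the 19 short motifs searched. The windows are chr2L:480945-481145 in ush, chr2L:6612604-6612804 in CG11050, chr3L:3060695-3060895 in CG32486, chr3R:11760978-11761178 in Lk6, chr2L:3302102-3302302 in CG9663, chr2L:9168397-9168597 in tai and chr3L:18009037-18009237 in Eip75B.
ush: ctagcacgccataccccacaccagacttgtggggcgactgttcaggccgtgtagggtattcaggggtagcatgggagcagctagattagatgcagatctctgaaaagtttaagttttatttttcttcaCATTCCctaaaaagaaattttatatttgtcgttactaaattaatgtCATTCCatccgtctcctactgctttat
CG11050: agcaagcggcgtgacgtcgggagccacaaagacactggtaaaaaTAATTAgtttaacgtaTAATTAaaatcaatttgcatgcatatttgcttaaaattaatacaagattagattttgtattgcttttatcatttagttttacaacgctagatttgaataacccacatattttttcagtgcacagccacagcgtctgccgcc
CG32486: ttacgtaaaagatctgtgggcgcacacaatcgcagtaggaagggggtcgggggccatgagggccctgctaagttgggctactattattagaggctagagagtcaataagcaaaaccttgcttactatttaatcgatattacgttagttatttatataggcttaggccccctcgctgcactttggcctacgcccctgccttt
Lk6: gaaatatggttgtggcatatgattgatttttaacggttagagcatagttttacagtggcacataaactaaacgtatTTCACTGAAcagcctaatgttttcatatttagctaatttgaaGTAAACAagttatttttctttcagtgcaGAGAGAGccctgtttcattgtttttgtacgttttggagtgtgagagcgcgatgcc
CG9663: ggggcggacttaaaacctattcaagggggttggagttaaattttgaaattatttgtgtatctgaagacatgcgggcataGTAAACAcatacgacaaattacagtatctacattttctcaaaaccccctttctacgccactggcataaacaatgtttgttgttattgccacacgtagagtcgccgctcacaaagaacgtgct
tai: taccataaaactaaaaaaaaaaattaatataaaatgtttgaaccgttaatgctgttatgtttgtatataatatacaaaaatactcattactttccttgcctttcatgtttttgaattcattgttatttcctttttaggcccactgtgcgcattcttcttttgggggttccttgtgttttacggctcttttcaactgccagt
Eip75B: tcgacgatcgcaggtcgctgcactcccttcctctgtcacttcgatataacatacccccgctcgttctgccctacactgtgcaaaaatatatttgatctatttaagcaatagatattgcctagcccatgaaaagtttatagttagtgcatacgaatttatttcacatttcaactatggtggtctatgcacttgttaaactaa
The capitals in Lk6 are, in order, a STAT, a forkhead and a GAGA match, and those in CG9663 a forkhead match. In ush they are 2 Scalloped matches and in CG11050 a pair of homeodomain matches, while the windows in CG32486, tai and Eip75B held none of the motifs. A match describes letters in the window and shows no factor there.

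The strongest intronic peak lay in ush, which encodes U-shaped, a cofactor of GATA factors. Its signal value, the authors' own score of each region whose scale no label or file names, was 1109 in the pooled list, 634 in replicate 1 and 481 in replicate 3. It ranked first on the arms in both replicates. The peak at chr2L:480910-481288 sat in intron 1 of 7, and the nearest TSS, 1357 bp away, was that of cbt, a zinc finger transcription factor gene that lies inside this intron. A second ush summit 4977 bp from a TSS of ush had a signal of 438 and ranked 67 in replicate 1 and 26 in replicate 3. A summit 200 bp from the strongest one had a signal of 371 and overlapped the same region of each replicate, so the replicate ranks of such neighbours are not separate values.

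CG11050 held the next strongest peak, at chr2L:6612521-6612876, with a signal of 1023 in the pooled list, 611 in replicate 1 and 416 in replicate 3. It ranked 2 in both. Its summit lay in an intron of 140 bp, the second of 4, and the peak reached past the intron on both sides. The peak in intron 1 of CG32486, at chr3L:3060627-3060978, had a signal of 761 in the pooled list, 423 in replicate 1 and 338 in replicate 3, and its nearest TSS was that of CG16753, 5716 bp away. Both replicates thus placed these 3 peaks among their 5 strongest arm regions.

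Lk6, which encodes a kinase of the translation factor eIF4E, had a peak of signal 683 in intron 1, at chr3R:11760892-11761213, with 350 in replicate 1 and 320 in replicate 3. Kr-h1, a zinc finger gene of the juvenile hormone response, had a peak of signal 559 in intron 1, at chr2L:6088343-6088688, with 332 in replicate 1 and 233 in replicate 3. The other 10 of the 15 strongest members had signals of 417 to 630 and lay in CG9663, LPCAT, CG32772, norpA, CG3726, Tlk, HmgD, ush, osp and babos. Of these genes norpA encodes the phospholipase C of phototransduction, Tlk a Tousled-like kinase and HmgD an HMG-box chromatin protein, and the last summit lies in HmgZ, a gene of the same family, as well. Each of the 15 was among the 70 strongest arm regions of both replicates.

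Lower in the list the replicates shared fewer of the members. To compare them, each replicate's 2567 strongest arm regions were taken, as many as the IDR list holds on the arms. Of the 941 members, 452 (48.0%, 44.8 to 51.3%) overlapped a region in the top list of both replicates, 679 in that of replicate 1, 637 in that of replicate 3 and 77 in neither. The share was 97% of the 100 strongest members, 88.5% of the next 200, 51% of the 300 after those and 7.33% of the 341 weakest. Nearly all members overlapped some listed region of both replicates, 908 of 941, with 4 lacking one in replicate 1 and 29 in replicate 3. Other classes were much alike in this. A region was lacking for 3.51% of members, 6.42% of peaks within 0.5 kb of a TSS and 3.48% of intergenic peaks 0.5 to 10 kb from one. Since the pooled list was made from both replicates, these shares describe the lists and are not an independent repeat. The 488 of 841 promoter peaks (within 0.5 kb of a TSS) in both top lists made 58.0% (54.6 to 61.4%), an interval above that of the members, and the 165 of 374 intergenic peaks at the same distance as the members made 44.1% (39.0 to 49.3%), an interval that overlaps theirs.

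**Figure D1:**
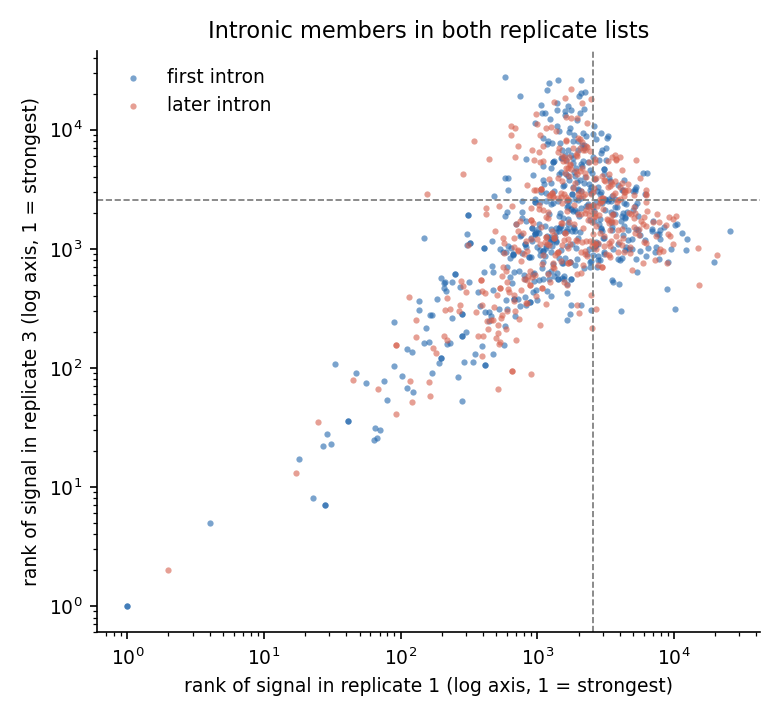
Rank of each of the 908 intronic members that has a region in both replicate lists, in replicate 1 (x axis) and replicate 3 (y axis), both log axes with 1 the strongest. Points are coloured by first or later intron, and the dashed lines mark rank 2567. The strongest members lie near the diagonal, and many weaker ones fall past the line of 1 replicate only.

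The pooled list holds weaker regions of the same kind, and intronic position alone was about as common in it. Of the 11304 pooled arm regions that meet the position rule, 8.32% (7.82 to 8.85%) were in the IDR list, against 8.56% of the 29974 regions of all kinds. The corresponding share was 21% of 4000 promoter regions and 6.59% of 5679 intergenic regions 0.5 to 10 kb from a TSS. The class made up 33.8% of the top list of replicate 1 and 37.2% of that of replicate 3.

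Signal in the members had a median of 86.0 and quartiles of 72.7 and 119, with 79 members above 200 and a lowest value of 65.2. The lowest value is set by where the authors' list ends. Promoter peaks had a median of 96.7 (quartiles 76.5 and 142) and intergenic peaks at the same distances one of 88.0 (72.8 and 119). Members were 35 of the 100 strongest arm peaks, beside 45 promoter peaks and 12 of those intergenic peaks. Of all arm peaks these classes made up 36.7%, 32.8% and 14.6%, so the count of members was near their share. The quartile ranges of the 3 classes overlap.

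First introns held more members than later ones for their length. A summit was assigned to the intron of the host gene's canonical transcript where that one spans it, and 520 members (55.3%, 52.0 to 58.5%) lay in a first intron, 249 in a second one and 172 in an intron beyond it. First introns made up 41.2% of the bases open to the rule, which are 33.2 Mb in all or 24.8% of the arms. They held 44.9% (43.9 to 45.8%) of the 10363 lower-ranked regions of the same class, an interval below that of the members. In density there were 38.1 members per Mb (34.9 to 41.5) in first introns and 21.6 (19.6 to 23.7) in later ones. In the top lists there were 36.6 per Mb in first introns and 18.9 in later ones in replicate 1, and 38.03 and 22.4 in replicate 3.

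The gap was present at every distance. In each of 4 distance classes the density was higher in first introns, with intervals that do not overlap those of later introns, by a ratio of 1.75 at 0.5 to 1 kb, 1.71 at 1 to 2 kb, 1.51 at 2 to 5 kb and 1.58 at 5 to 10 kb. The ratio stayed between 1.57 and 1.94 in the top list of replicate 1 and between 1.39 and 1.68 in that of replicate 3. For the lower-ranked regions it was between 1.13 and 1.19. Over first and later introns together, density was 49.5 members per Mb in the nearest class, then 32.9, 26.6 and 19.9 in the farthest. The intervals of neighbouring classes overlapped only between the second and the third of these (28.6 to 37.7 and 23.8 to 29.7), while the lower-ranked regions lay between 307 and 329 per Mb in all 4. The choice of transcript matters: the share of members in a first intron was 74.1% where 1 spanning transcript sufficed and 44.2% where every one had to have it first, against 54.3% and 33.8% of 16577 positions spaced evenly through the open bases.

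**Figure D2:**
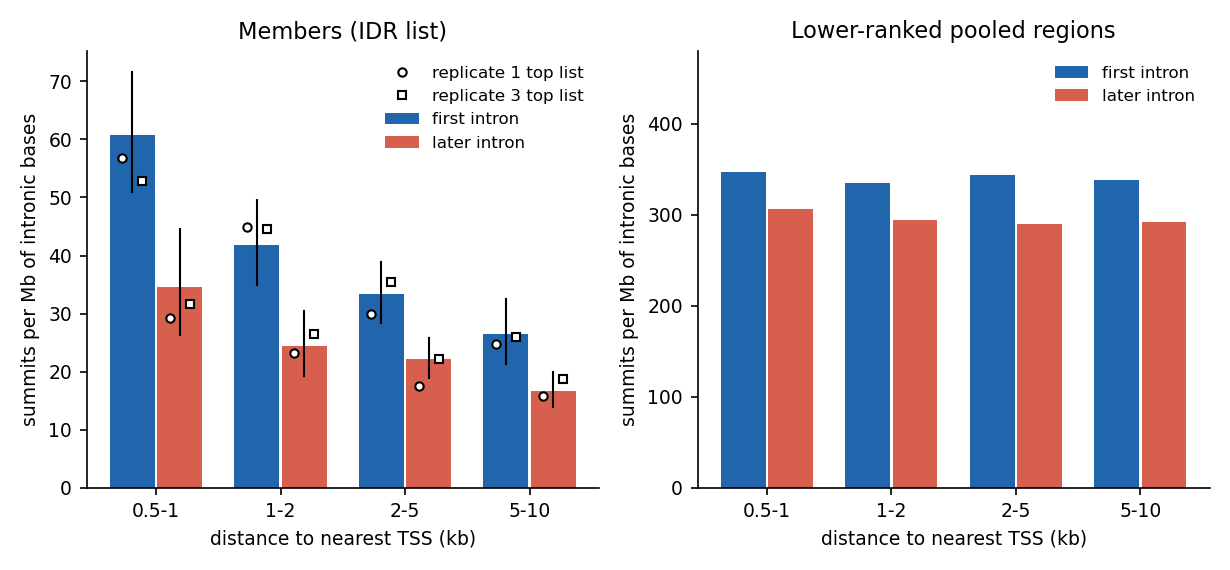
Member summits (left) and lower-ranked pooled regions of the class (right) per Mb of intronic bases, by distance to the nearest TSS and by first or later intron. Bars are the values, black lines exact 95% Poisson intervals over members, and open symbols each replicate's top list. Members thin out with distance and are denser in first introns in each class, and the lower-ranked regions stay between 289.8 and 346 per Mb throughout.

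Signal overlapped widely between first and later introns. Members in first introns had a median signal of 88.0 and those in later introns 83.5, with quartiles of 73.5 and 122 in first and 72.0 and 118 in later introns. By distance class the medians were 85.9, 88.9, 84.8 and 86.7. In first introns were 65% of the 100 strongest members, 52.5% of the next 200, 57.3% of the 300 after those and 52.2% of the 341 weakest.

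The introns that hold members were long. Their median length was 11640 bp (quartiles 5789 and 23401), against 9390 bp for the evenly spaced positions. For first introns the medians were 10107 bp at members and 10092 bp at the positions, and for later introns 14039 bp and 8556 bp. In 911 cases (96.8%) the whole peak, with a median width of 404 bp, lay in its intron, and 5 members, that in CG11050 among them, sat in introns shorter than 404 bp.

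Most members had a TSS of their own host gene as the nearest one. This held for 804 of 941 (85.4%, 83.0 to 87.6%), for 76.7% of the lower-ranked regions and for 71.6% of the evenly spaced positions. The median distance to the nearest TSS was 2435 bp (quartiles 1138 and 4609). Of the 804, 570 lay downstream of that TSS and 234 (29.1%) upstream of it, which in a host gene means an alternative TSS farther along the gene, against 23.3% upstream among lower-ranked regions and 20.8% among the positions. Of the 137 members nearer to another gene's TSS, 82 lay upstream of it and 55 downstream. Another member lay within 5000 bp of 464 members (49.3%) and within 404 bp of 76, and merging overlapping intervals left 904 regions. A promoter peak lay within 5000 bp of 248 members (26.4%). These shares were not taken for lower-ranked regions or the positions, so whether members lie closer together than such regions was not tested.

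The members fell in 566 host genes, 6.13% of the 9232 protein-coding genes that have bases open to the rule. A single member was found in 357 hosts, while 209 hosts with 2 or more held 608 members. Hosts were long genes, with a median of 21231 bp and 12150 open bases, against 3489 bp and 470 open bases over all 9232 genes. Hosts made up 0.617% of the 6478 genes with up to 2 kb of open bases. That share rose with each class of open bases, to 40.6% of the 421 genes with more than 20 kb. Hosts also often had a promoter peak at a TSS of their own, 223 of 566 (39.4%, 35.3 to 43.6%), against 533 of 8666 other genes (6.15%, 5.65 to 6.68%). The difference held within each class of open bases: 40% of hosts against 4.88% of other genes with up to 2 kb, and 40.4% against 8.4% with more than 20 kb. It was 38.3% for the 441 hosts with a member more than 1 kb from any TSS. In the replicates it was 41.1% of hosts against 7.98% of other genes in replicate 1, and 33.4% against 6.25% in replicate 3. Hosts had a median of 2 TSSs against 1 over all 9232 genes, and these shares were not matched for the number of TSSs.

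Genes of the ecdysone response were among the hosts with the most members. Eip75B, which encodes the nuclear receptor E75, had 16, and EcR, the ecdysone receptor itself, had 11, as did shn of the Dpp pathway. Eip74EF, an early ecdysone gene for an ETS factor, and tai each had 9. The list of ecdysone genes counted 14 hosts of 21 with open bases, and 15.7 members per 100 kb of them (12.3 to 19.8), the highest of the 23 lists in the IDR list, against 2.86 (2.68 to 3.04) over all protein-coding genes. It was 14.0 per 100 kb in the top list of either replicate, where in replicate 1 the Polycomb and trithorax list at 14.8 and the GATA and forkhead list at 14.3 were higher. It was 14.8 without Eip75B and 14.3 without tai, the gene that the transgene carries. The labels do not say how many copies of tai the line has. The EcR partner gene usp had no open base and no member. Host counts of this list and of the lists below were not matched for open bases, with which the share of hosts rises. The values per 100 kb do take open bases into account.

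In Eip75B the signals of the 16 members ran from 68.4 to 186 with a median of 85.6, and 15 of the 16 lay in introns 3 to 5 of 7. The strongest, at 186, ranked 512 in replicate 1 and 196 in replicate 3. Replicate 1 had 12 of its top regions there and replicate 3 had 16, and 6 of the members were in both top lists. For 14 of the 16 the nearest TSS was one of Eip75B.

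In EcR the 11 members had signals of 66.7 to 197, and 10 lay in intron 3 of 6. For 7 of them the nearest TSS was that of CG14589 and for 4 it was one of EcR. The strongest ranked 648 in replicate 1 and 95 in replicate 3, and 6 members were in both top lists. The replicates differed here, with 12 regions in the top list of replicate 1 and 5 in that of replicate 3.

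In tai all 9 members lay in intron 1 of 12, between 696 and 9862 bp from a tai TSS, and 7 were in both top lists. The strongest had a signal of 268, with ranks of 90 in replicate 1 and 245 in replicate 3, and the other 8 had 67.3 to 107. Among hosts with 4 or more members, tai with 4.76 members per 10 kb of open bases came below babos at 7.35 and HmgD at 5.84 and above CG9674 at 4.07 and vri at 3.72. Overlap between neighbours was small there, with 8 regions left in tai after merging. Replicate 1 had 8 top regions in tai and replicate 3 had 10, but the 4 members of CG9674 included none in both top lists and the 5 of babos only 1.

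Other ecdysone genes had fewer but some stronger members. Besides the Kr-h1 peak of 559, Eip78C, a nuclear receptor gene, had a summit of 353 in intron 3 that ranked 68 in replicate 1 and 66 in replicate 3. Hr4, another nuclear receptor gene, had 5 members of 79.4 to 219, all in intron 2 of 11. The bZIP gene vri, which also serves the circadian clock, had 6 members of 71.6 to 257 in intron 1, of which 5 were in both top lists. Named after their values were seen, as the rest of the list's hosts, were br with 3 members of 90.9 to 214, Eip63E with 3 of 83.4 to 180, Eip63F-1 with 3 of 68.0 to 177, and ImpL2, Hr39 and ftz-f1 with 1 each. The 3 br members lie in Mur2B as well, a gene whose span holds br. The br summit of 159 and the ImpL2 summit of 134 had no region in replicate 3.

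**Figure D3:**
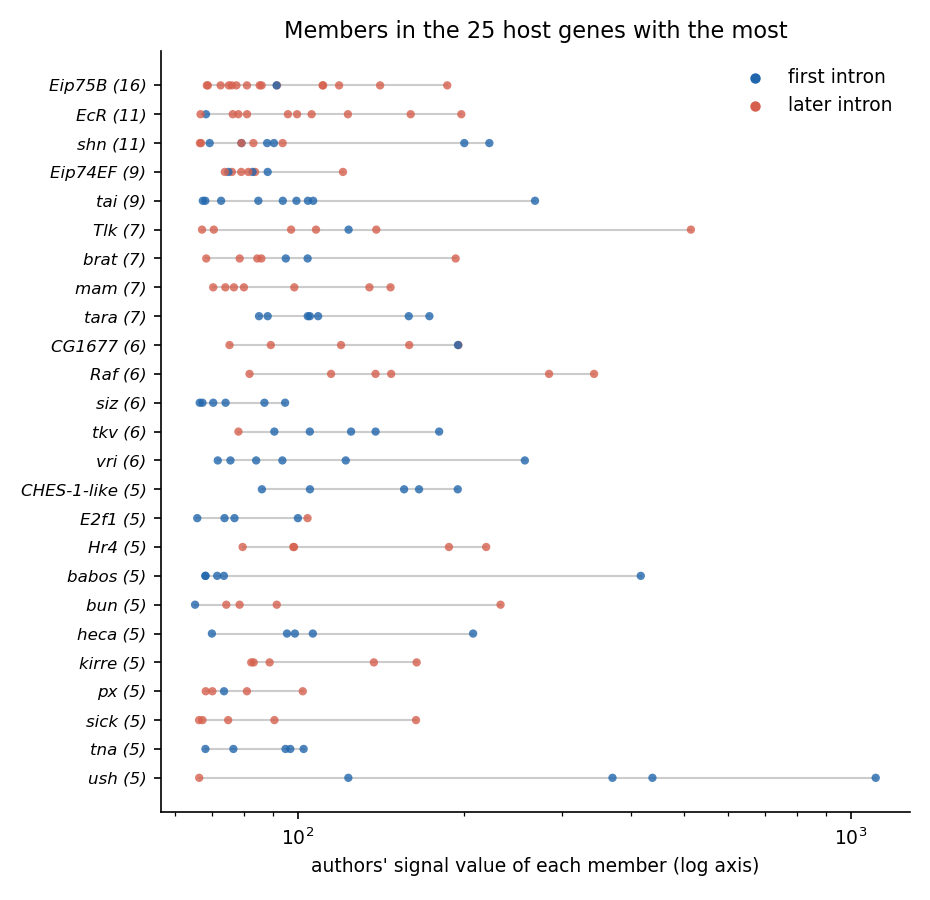
Signal of each member (x axis, log scale, the authors' units) in the 25 host genes with 5 or more members, with the number of members after each name. Blue points are first introns and red points later introns. Introns are numbered in the canonical transcript where it spans the summit, and numbers in other transcripts are not shown. By that numbering Eip75B (7 TSSs) and EcR (4 TSSs) members are nearly all in later introns and those in tai and vri all in the first. The strongest values are in ush, Tlk and babos, with several of them in ush.

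Beyond the ecdysone genes, shn, which encodes the zinc finger protein Schnurri of Dpp signalling, had 11 members of 66.5 to 222, 6 of them in intron 1. Only 4 of the 11 were in both top lists. The Dpp receptor gene tkv had 6 members of 78.1 to 180, with 4 in both top lists, so that the Dpp list counted 6 hosts of 14 and 12.3 members per 100 kb (7.86 to 18.2), or 8.51 without shn. The Notch coactivator gene mam had 7 members of 70.3 to 147 in second introns, and the Notch list gave 6.12 per 100 kb (2.80 to 11.6) with it but 1.93 without. The translational repressor gene brat and the chromatin regulator gene tara each had 7 members, those in tara all in its only intron.

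The cell cycle list gave 14.2 members per 100 kb (7.56 to 24.3) in 3 hosts of 16, tara, E2f1 and CycE. It was 9.44 without tara, which held 7 of the 13 members, 13.1 in replicate 1 and 8.74 in replicate 3. The Polycomb and trithorax list gave 12.9 (5.19 to 26.6) in 3 hosts of 19, or 8.31 without Trl. Trl, which encodes the GAGA factor, had 3 members, the strongest at 377 with ranks of 45 and 79 in replicates 1 and 3. The GATA and forkhead list gave 10.9 (5.82 to 18.7) in 4 hosts of 12, ush with 5 members and CHES-1-like with 5 members of 86.1 to 195 among them. The list counts ush as a cofactor of GATA factors, and none of its 4 hosts encodes a GATA factor itself.

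Nuclear receptors gave 11.9 per 100 kb (8.40 to 16.4) in 7 hosts of 19 and 9.11 without Eip75B. All of these hosts but Hnf4, which had 1 of the 37 members, are hosts of the ecdysone list too. The value is therefore not separate from that of the ecdysone genes. Coregulators and bHLH-PAS genes gave 9.57 (5.58 to 15.3), or 5.04 without tai. The Hippo list gave 8.15 (4.07 to 14.6) in 8 hosts of 21, with the strongest member at 408 in crb, the apical polarity gene, and the Wingless list gave 6.31 (3.68 to 10.1) in 9 hosts of 19. EGF receptor and Ras genes gave 7.49 (3.87 to 13.1), not counting Raf, a kinase gene with 6 members that the list holds under an older symbol. Insulin and TOR genes gave 7.62 (3.29 to 15.02), with 4.77 in replicate 3, and circadian genes 8.53 (4.41 to 14.9) with vri or 4.82 without it. Apoptosis and autophagy genes gave 9.09 (2.48 to 23.3), or 5.42 without Diap1, and fat body genes 6.66 (1.37 to 19.5). Neural fate factors gave 5.47 (3.19 to 8.76), or 3.53 without brat, and JNK and cytoskeleton genes 4.40 (1.77 to 9.07), or 2.74 without puc. Over all lists 19 symbols had no match in the annotation and were left out, so list values omit those genes. The intervals of Notch, apoptosis, fat body and JNK genes begin at or below the upper bound over all genes.

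The remaining lists had values below the 2.86 per 100 kb over all genes, most of them within counting error. Ion channel genes gave 0.380 per 100 kb (0.00961 to 2.11), 1 member in 263 kb of open bases, and axon guidance and adhesion genes 1.35 (0.672 to 2.41), 11 members in 818 kb, of which kirre, an adhesion gene, held 5. Both intervals end below the lower bound over all genes. Leg and wing disc patterning genes gave 1.70 (0.463 to 4.35), or 0.529 without Antp, Hox genes 2.09 (0.430 to 6.10), with Antp the only host, Hedgehog genes 1.95 (0.0495 to 10.9), with ptc the only host, and muscle genes 2.68 (0.870 to 6.25). These 4 intervals include the value over all genes.

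**Figure D4:**
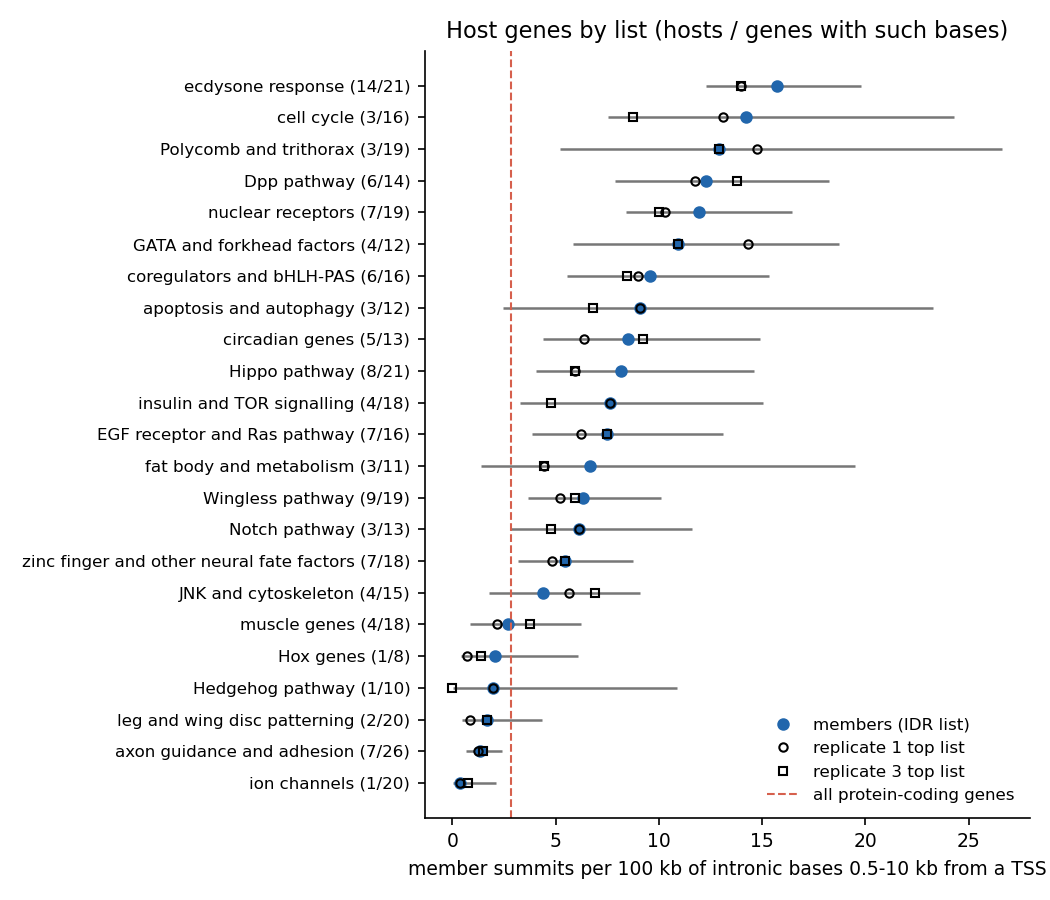
Member summits per 100 kb of intronic bases 0.5 to 10 kb from a TSS for each of 23 gene lists, with hosts and genes with such bases in brackets. Filled points are the members with exact 95% Poisson intervals, open symbols each replicate's top list, and the dashed line is 2.86, the value over all protein-coding genes. Among the filled points ecdysone response is highest and ion channels lowest. In the top list of replicate 1 the Polycomb and trithorax list and the GATA and forkhead list are above ecdysone response. In that of replicate 3 ecdysone response is highest, and the Hedgehog list is below ion channels.

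The motifs searched, on both strands, were DRE (TATCGATA), Motif 1 (GGTCACAC), the GAGA motif with letters GAGAGAG, the GATA motif with letters AGATAA, the forkhead motif (TGTTTAC), the nuclear receptor half-site (AGGTCA), a juvenile hormone response core (CACGCG), a Myc-type E-box (CACGTG), a palindromic E-box (CAGCTG), a Snail-type E-box (CAGGTG), AP-1 (TGANTCA), Grainyhead (CCGGTT), Zelda (CAGGTA), Scalloped (CATTCC), the Su(H) site of Notch signalling (TGGGAA), ETS (CCGGAAG), homeodomain (TAATTA), STAT (TTCNNNGAA) and a dinucleotide repeat (ACACACAC). The Zelda and Snail-type letters share a core of 5 bases, and others can overlap too. They were counted within 100 bp on each side of the summits, and the same share is given for lower-ranked regions of the class and for the 16577 evenly spaced windows of open bases.

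Forkhead and GAGA letters were the motifs whose interval in member windows lay above those of both backgrounds. Forkhead letters were in 87 windows (9.25%, 7.47 to 11.3%), against 6.25% of lower-ranked windows and 4.63% of the spaced ones. They were also in 5.35% (3.93 to 7.09%) of promoter and 4.81% (2.88 to 7.50%) of intergenic peak windows. The intergenic interval just reaches that of the members. GAGA letters were in 54 windows (5.74%, 4.34 to 7.42%), against 2.25% of lower-ranked and 2.71% of spaced windows. They were also in 5.11% (3.72 to 6.83%) of promoter and 3.48% (1.86 to 5.87%) of intergenic peak windows. Both of these intervals overlap that of the members. In the replicates' top regions of the class, forkhead letters were in 7.38% (5.73 to 9.33%) in replicate 1 and 7.11% (5.57 to 8.93%) in replicate 3, intervals that overlap that of the lower-ranked windows (5.79 to 6.74%). GAGA letters were in 5.07% in replicate 1 and 5.13% in replicate 3, both intervals above that of the lower-ranked windows. Within 50 bp on each side GAGA letters were in 1.81% of members and 1.47% of spaced windows, within counting error, while forkhead letters were in 5.95% and 2.49%. Within 200 bp on each side GAGA letters were in 13.8% of members, 4.84% of lower-ranked and 5.46% of spaced windows. Forkhead letters there were in 13.4% of members (11.3 to 15.7%), 11.7% of lower-ranked windows (11.1 to 12.3%) and 8.86% of spaced ones. The forkhead intervals of members and lower-ranked windows thus overlapped at 200 bp.

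The half-site of nuclear receptors, the family that Tai serves, was in 45 windows (4.78%, 3.51 to 6.35%), within counting error of the 4.53% of lower-ranked and 5.06% of spaced windows, and in 2.38% (1.46 to 3.65%) of promoter peak windows, an interval that overlaps. GATA letters were in 16.8% (14.5 to 19.3%), near the 15.9% of lower-ranked regions and above the 11.9% of spaced windows. AP-1 letters were in 6.59% (5.09 to 8.37%), against 5.80% of lower-ranked and 4.87% of spaced windows. Homeodomain letters were in 15.7% (13.5 to 18.2%), against 19.9% of lower-ranked and 15.3% of spaced windows, and in 18.1% (15.6 to 20.8%) of replicate 1 top regions and 12.8% (10.7 to 15.04%) of replicate 3 top regions. DRE letters, common at promoters of widely expressed genes, were in 2 of 941 windows (0.213%, 0.0257 to 0.766%), against 6.90% of promoter peak windows, and Motif 1 letters in 0.319% against 3.45%. The juvenile hormone core was in 2.98% (1.99 to 4.27%) and in 5.71% (4.24 to 7.50%) of promoter peak windows, intervals that overlap slightly.

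**Figure D5:**
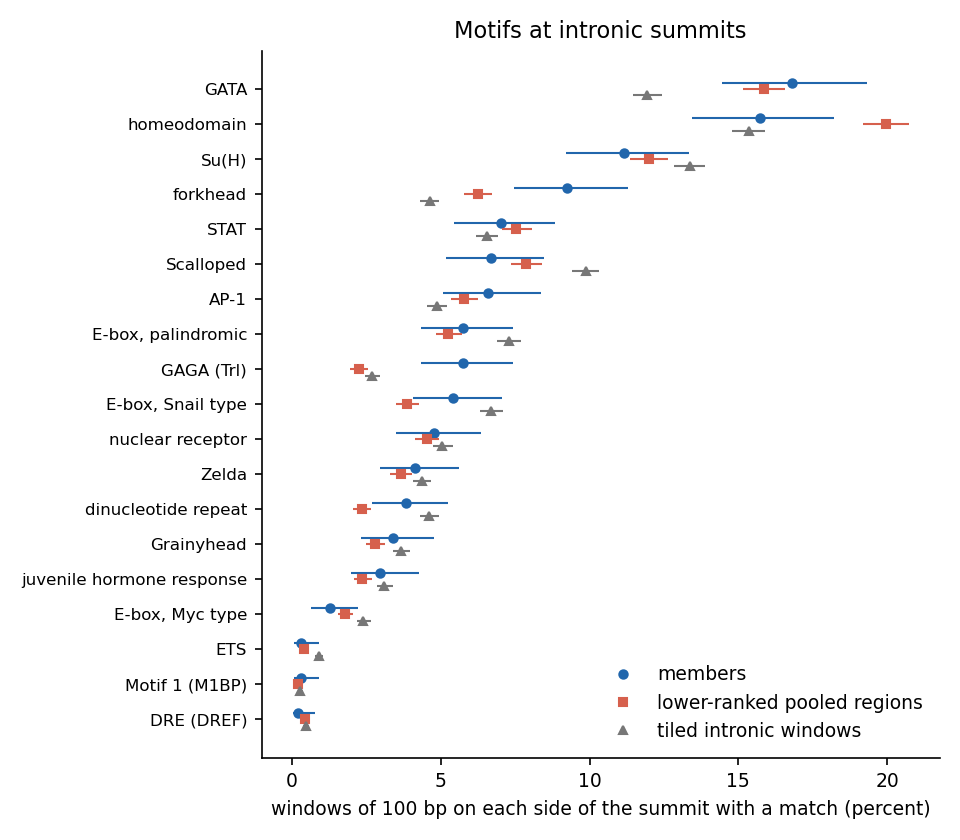
Share of windows, 100 bp on each side of a summit, with a match to each of 19 motifs (percent), for members, lower-ranked pooled regions of the class and evenly spaced intronic windows, with exact 95% binomial intervals. Forkhead and GAGA intervals of members stand to the right of both backgrounds, and the homeodomain share is highest in lower-ranked regions.

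Base composition differed between the sets of windows. GC content averaged 35.7% ± 6.1 (SD over 941 windows) at member summits, 34.4% at lower-ranked summits and 40.1% in the spaced windows, and the part of composition in the motif shares was not tested. Promoter and intergenic peaks averaged 36.1% and 35.9%. The 100 strongest members averaged 38.2%.

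At the edges of the rule, Eip63F-1 had a summit 501 bp from a TSS with a signal of 177, and a summit in aru exactly 500 bp away, outside the rule, had 281. At the far edge a member in LRP1 lay 9991 bp from a TSS with a signal of 73.8, and a summit in Samuel at 10029 bp, outside the rule, had 165. EcR had 1 summit of 81.7 at 494 bp that counts as a promoter peak. These genes, other than EcR, were named for their place at the edges.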

How the data were processed

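Per the labels, chromatin was sonicated and immunoprecipitated with an anti-GFP antibody. The deposited files are peak lists, and per the text records deposited with them both replicates were called with the same control, the pooled list came from both replicates, and the IDR list from all 3. The signal value per region is the authors' own. Aligner, caller, caller settings and signal scale: not given in the sources used here. Regions were ranked by signal within each list. Genes came from Ensembl release 115 (BDGP6.54) while bases were read from the RefSeq release of dm6. Python 3.11.15, numpy 2.4.6, pandas 2.3.3 and scipy 1.17.1 were used, with exact 95% binomial and Poisson intervals. Overlap meant 1 bp or more. With 1 group of 2 replicates and a shared control, no test between groups could be made, and no p-value is given. Assignment of summits to classes and introns was tested only on a few made-up genes with planted summits. Members, lists and motifs were chosen with earlier results of these data known. Genes named are hosts of the 15 strongest members and their nearest-TSS genes, the 8 hosts with most members, the 5 densest with 4 or more, up to 3 per list, and tai, EcR and usp, 78 in all. Other genes, such as CG14589, Raf, br and Pen, were named after their values were seen. The reads, the control and lists on other builds were not used here.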

Additional observations from a re-analysis of the deposited data

How the results depend on the processing

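Of 55 alternative values for the main results, 31 stayed within the interval, spread or ratio set for them. The ratio, which applied to counts of members and hosts, was 1.5. Taking 1 summit for each repeated interval could hardly move a value, since no members share an interval. The number of members was 728 to 956 and of host genes 441 to 607 over the alternatives. With a limit of over 1 kb from a TSS, members were 29.0% of arm peaks, 51.3% were in a first intron, the median distance was 3131 bp, 83.2% were nearest to a host TSS, and 7.59% of pooled regions of the class were in the IDR list. With a limit of 5 kb these were 28.4%, 58.9%, 1757 bp and 88.2%. The first-intron share was 74.1%, 44.2% or 52.4% for first in any transcript, in every transcript or in the longest one. With genes of every biotype the median distance was 2289 bp and 76.8% were nearest to a host TSS. In the larger top lists of 5000, and among all listed regions, 73.9% and 96.5% of members were in both replicates. GC content was 34.5% over 50 bp and 37.8% over 200 bp on each side. In the upper-ranked part of the IDR list alone 3.86% of the class was called. With 1 replicate at a time the share of arm peaks was 33.8 to 37.2%, the median signal 40.0 to 57.0 on each list's own scale, the median distance 2298 to 2473 bp and the share nearest to a host TSS 84.0 to 85.4%. Of 38 motif values in other windows, 4 stayed within the interval. Merging overlapping members, chosen after seeing the data, left 904 regions with 55.1% in a first intron. No paired analysis was possible because there is 1 group. Read depth is unknown, and weak members rest on fewer shared regions than strong ones.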

Other observations

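The arms differed in how many members they held for their open bases. There were 32.8 members per Mb (28.4 to 37.7) on 2L, 32.4 on 3L, 27.4 on 3R, 27.3 on 2R and 23.8 (20.3 to 27.8) on X. Chromosome 4, the small one, had 4 members, or 8.95 per Mb (2.44 to 22.9), although lower-ranked regions of the class were densest there at 599.5 per Mb, against 233 to 370 on the other arms. Its top list had 2 regions of the class in replicate 1 and 8 in replicate 3. The median signal of members was 97.2 on X and 83.4 to 87.7 on the large autosomal arms. Of pooled regions of the class, the IDR list took 9.29% on X, 9.22% on 2R, 8.35% on 2L, 8.06% on 3L, 8.03% on 3R and 1.47% on chromosome 4. Lower-ranked regions numbered 359.6 per Mb on 2L, 370.03 on 3L, 314 on 3R, 269 on 2R and 233 on X.

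A few strong members were absent from a whole replicate list. They were named after their values were seen. A summit in CG9837 with a signal of 274 had no region in replicate 3, and summits in Pen at 267 and CG17121 at 205 had none in replicate 1.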
